A study of Drosophila melanogaster with 18 samples.

Results

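Fly embryos that overexpressed the transcription factor E2f2 together with its partner Dp were compared with control embryos of the same age. The 2 arrays of this cross, chosen by their sample titles, are 2 of the 18 arrays of the series. In the E2f2/Dp embryos the Arm-Gal4 driver, which uses the promoter of armadillo and is active in most cells, was crossed to transgenes for E2f2 and Dp. The control embryos carried the same driver crossed to the yellow white (yw) stock, so that they had the driver without a transgene. Both groups were 8 to 10 h old, and each holds 2 arrays. Direct comparisons were also made with embryos of that age in which Arm-Gal4 drove E2f1 and Dp (E2f1/Dp, 2 arrays) or Rbf1 (gene symbol Rbf, 2 arrays). The remaining arrays came from embryos expressing an E2f1 fragment without its DNA-binding domain, and from null mutants of Dp or E2f1, at that age. They also came from E2f1 mutant and control embryos at 14 to 16 h. These arrays entered the normalization, the filter and the shared estimate of spread, and are otherwise used to show the level of single transcripts. The controls at 14 to 16 h also scale an index of age. Whole embryos were used, between 200 and 700 for an RNA sample, collected over 2 h and kept at 25 °C. E2f2 and Dp were driven together and no group with either alone was analysed here, so their parts in a difference cannot be told apart. Whether both RNA samples of a cross were collected separately is not given in the labels, so a p-value here speaks only for these samples. It sets their difference against a spread estimated over all 9 groups, not over the compared groups alone.

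E2F proteins bind DNA as heterodimers with Dp and control genes of DNA replication, nucleotide supply and mitosis. In the fly E2f1 acts mainly as an activator and E2f2 as a repressor. Retinoblastoma family proteins, Rbf and Rbf2, bind to E2F dimers and hold target genes down, and E2f2 with Dp, Rbf and further subunits forms the dREAM complex, which keeps many developmental and cell cycle genes repressed.

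Signal is the deposited linear probe-set intensity after quantile normalization. The floor lies at 47.5, the 20th percentile over the whole table. Differences were tested with limma on the log2 scale over 8975 genes and unnamed probe sets, and a difference passed at a Benjamini-Hochberg adjusted p under 0.05. Errors of log2 differences are standard errors (SE), and errors of mean signals are standard deviations (SD, n = 2). The level of one probe set cannot be set against that of another.

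The deposited median signal was 234 on both E2f2/Dp arrays, against 209 and 235 on the control arrays. Across the 8975 units the E2f2/Dp arrays correlated with each other at 0.927, and 944 units were over 2-fold apart between them. The control arrays were less alike, with a correlation of 0.894 and 1517 units over 2-fold apart. The E2f2/Dp arrays were nearer to control replicate 2 (0.917 and 0.920) than to control replicate 1 (0.893 and 0.895). These are correlations across genes, which are not independent replicates. An index of developmental age, built from 300 genes that were higher and 300 that were lower in control embryos at 14 to 16 h than at 8 to 10 h and scaled to 0 and 1 at these ages, was 0.051 and 0.065 on the E2f2/Dp arrays, against -0.054 and 0.054 on the control arrays. The 2 groups overlapped on this index, with E2f2/Dp replicate 2 above both control arrays. The mean of the control arrays is 0 through the scaling.

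E2f2 and Dp, the transcripts that were driven, were both higher in E2f2/Dp embryos. The E2f2 signal was 21453 and 21003 on the E2f2/Dp arrays, against 2376 and 1979 on the control arrays. Its mean was 21228 ± 318 in E2f2/Dp embryos and 2178 ± 281 in control embryos (SD, n = 2 each). E2f2 thus rose by 3.29 ± 0.28 on the log2 scale, or 9.79-fold (limma adjusted p = 5.12e-05). Both E2f2/Dp arrays lay above every other array of the series, of which the next was E2f1/Dp replicate 2 with 4451. Dp read 4283 and 4477 on the E2f2/Dp arrays, against 2089.8 and 1649 on the control arrays. It rose by 1.24 ± 0.19, or 2.36-fold (limma adjusted p = 0.0186). On the E2f1/Dp arrays, where Dp was driven too, it read 5918 and 5339.9, and the difference of E2f2/Dp from E2f1/Dp embryos was -0.36 ± 0.19 (adjusted p = 0.488). Dp no longer passed with median centring (adjusted p = 0.157), in limma without the trend (0.0805), and without E2f2/Dp replicate 1 (0.127) or 2 (0.156).

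The other members of the family did not pass. E2f1, the activating E2F, read 1076 and 1008 on the E2f2/Dp arrays, against 2654 and 1325 on the control arrays. The groups did not overlap, but the control arrays were 2-fold apart, and the difference of -0.85 ± 0.54 had an adjusted p of 0.704. Rbf read 242 and 317 on the E2f2/Dp arrays, against 344 and 241 on the control arrays, with a difference of -0.05 ± 0.35. Rbf2 read 354 and 526 on the E2f2/Dp arrays, against 768 and 390.2 on the control arrays, with a difference of -0.34 ± 0.57. The arrays of the 2 groups overlapped for both pocket proteins, and the sign of both differences turned when control replicate 1 was left out (0.20 for Rbf and 0.14 for Rbf2). Of 7 measured subunits of the dREAM complex, 0 passed and 0 had an unadjusted p under 0.05 by limma, 2 had a positive difference and the median was -0.12. In mean log2 signal of these subunits, control replicate 2 (10.15) lay below both E2f2/Dp arrays (10.28 and 10.30).

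**Figure D1:**
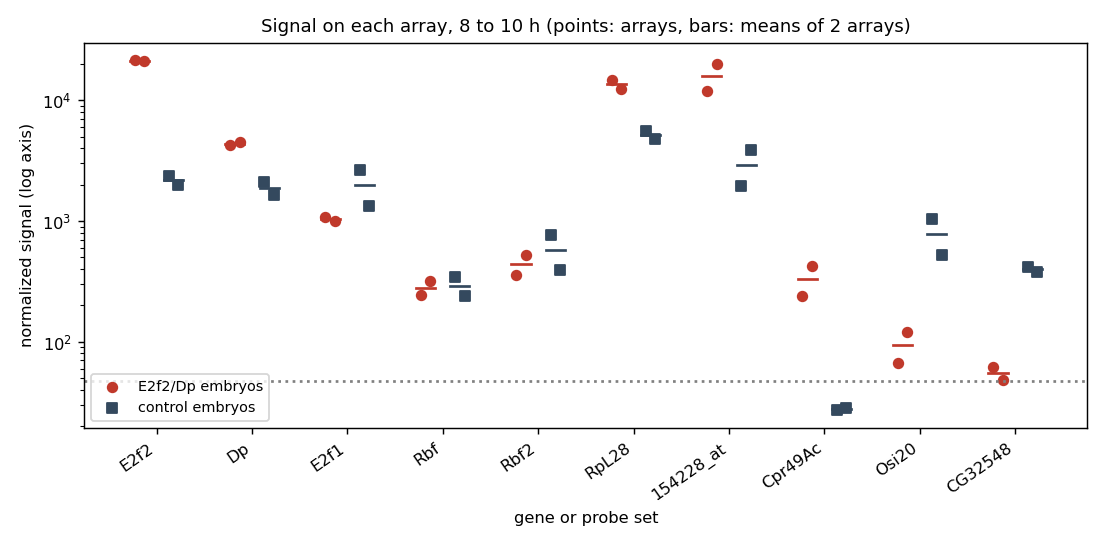
Normalized signal (log axis) of the E2F and Rbf family and of the other units that passed between E2f2/Dp (red circles, left of each pair) and control embryos (dark squares), with 1 point for each array, a bar at the mean of 2 arrays and a dotted line at the floor. E2f2 stands at 21453 and 21003 on the E2f2/Dp arrays, while the 2 groups overlap for Rbf and Rbf2.

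Few other transcripts differed from the control. Of the 8975 units, 7 passed (0.0780%), of which 5 were higher in E2f2/Dp embryos (0.0557%) and 2 were lower (0.0223%). Besides E2f2 and Dp these were RpL28, Cpr49Ac, Osi20, CG32548 and a probe set without a single gene, 154228_at. An unadjusted p under 0.05 was reached by 790 units (8.80%), 415 higher (4.62%) and 375 lower (4.18%). The median difference over all units was 0.00 (-0.0012), with an SD of 0.529, and 611 units differed by over 2-fold. The number that passed depended on single arrays. It was 3 without E2f2/Dp replicate 2 and 195 without control replicate 2, of which 139 were higher and 56 lower. Without control replicate 1 it was 6, all higher, so that neither of the 2 lower calls was left. A fit of these 4 arrays alone called 1 unit, E2f2.

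**Figure D2:**
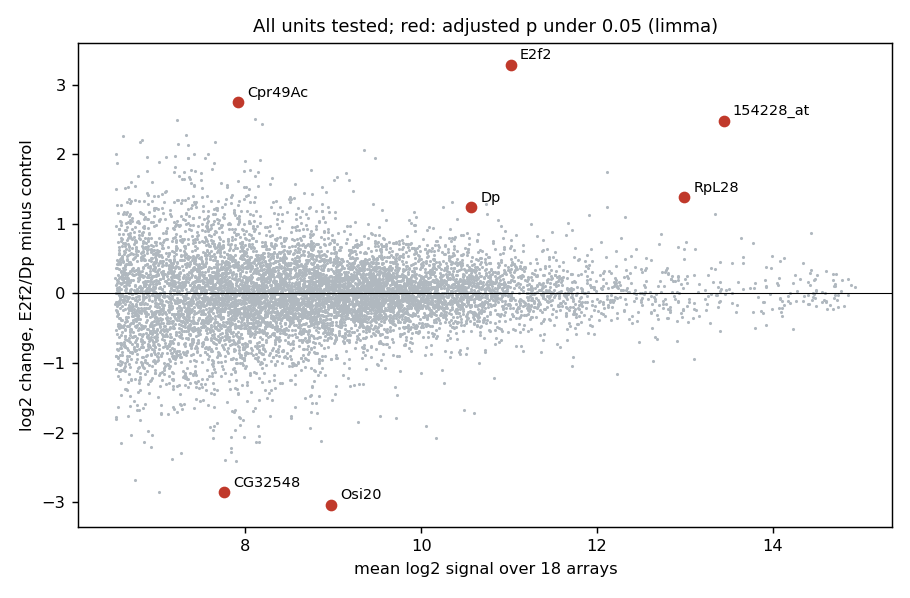
Log2 difference of E2f2/Dp minus control embryos against the mean log2 signal over 18 arrays for the 8975 units tested, with the 7 that passed in red. E2f2 lies at 3.29 and Osi20 at -3.04, and the spread of the grey points is widest at low signal.

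RpL28, a protein of the large ribosomal subunit, rose. Its signal was 14717 and 12420 on the E2f2/Dp arrays, against 5613 and 4752 on the control arrays, a difference of 1.39 ± 0.17, or 2.62-fold (limma adjusted p = 0.00134). It was low in control, E2f1/Dp (3541 and 3649.6) and Rbf1 embryos (2992 and 3412), and high in every other group. With the E2f1 fragment it was 8414 and 10109, in Dp mutants 10708 and 13016, in E2f1 mutants at 8 to 10 h 12531 and 13906, and at 14 to 16 h between 9934 and 14861. The E2f2/Dp level thus lay within the range of the mutants and the older embryos, which was not tested. The call held in each of the 4 fits that left out 1 array, but was lost in the fit of the compared groups alone.

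The unnamed probe set 154228_at rose as well. It read 11942 and 19874 on the E2f2/Dp arrays, against 1953 and 3865 on the control arrays, a difference of 2.49 ± 0.29, or 5.61-fold (limma adjusted p = 0.00134). Among the groups its level was lowest in Rbf1 embryos (908.5 and 699) and highest in the mutants and at 14 to 16 h (27571 to 32505). E2f1/Dp embryos (7977 and 6432) and embryos with the E2f1 fragment (16532 and 11231) lay between.

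Cpr49Ac, a cuticle protein with a chitin-binding Rebers-Riddiford domain, rose. It read 240.5 and 427 on the E2f2/Dp arrays, while both control arrays (27.0 and 28.3) were at the floor, so the change was at least 6.74-fold (fitted log2 difference 2.75 ± 0.46, limma adjusted p = 0.0279). The control at 8 to 10 h was the lowest of the 9 groups. E2f1/Dp embryos read 123 and 49.3, so that their lower array was close to the floor, and the arrays of the remaining groups lay between 158 and 885. The call against the control passed in 1 of the 4 fits that left out 1 array (without control replicate 2), with adjusted p-values up to 0.249, and not with the replicate number as a block (0.0505).

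Osi20, a member of the Osiris family of transmembrane proteins of cuticle-secreting epithelia, fell. It read 66.8 and 121 on the E2f2/Dp arrays, against 1033 and 528 on the control arrays, a difference of -3.04 ± 0.50, or 8.22-fold lower (limma adjusted p = 0.0279). The call did not pass with the replicate number as a block (0.0505). Levels about as low were read with the E2f1 fragment (42.8 and 54.9) and in Dp mutants (123 and 46.5). Rbf1 embryos read 112 and 204, the latter above both E2f2/Dp arrays. E2f1/Dp embryos (315 and 624) and E2f1 mutants (849.8 and 427) were nearer to the control, and at 14 to 16 h the signal was between 11942 and 16420. CG32548, a gene on the X chromosome, fell too. It read 61.7 and 48.4 on the E2f2/Dp arrays, against 415 and 381 on the control arrays, a difference of -2.86 ± 0.44, or 7.27-fold lower (limma adjusted p = 0.0186). A further probe set of the gene gave a difference of -1.47, with 58.3 and 34.1 on the E2f2/Dp arrays and 220.5 and 96.9 on the control arrays. The calls of Osi20 and CG32548 each passed in 1 of the 4 fits that left out 1 array, the fit without control replicate 2, with adjusted p-values up to 0.339 and 0.156. For CG32548 the other groups at 8 to 10 h lay between 59.7 and 179, below the control, and those at 14 to 16 h between 1748 and 2819.9. Both lower calls therefore concerned transcripts with far higher signal at 14 to 16 h, and the part of embryo age in them was not tested. In RNA of whole embryos, fewer cells of a type and less RNA per cell cannot be told apart.

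Large differences that did not pass were found in each direction. Among named genes whose arrays did not overlap, the next higher were CG7896 (351.5 and 326 on the E2f2/Dp arrays, 62.7 and 56.7 on the control arrays), at a log2 difference of 2.51 ± 0.65, and Alg10, a glucosyltransferase of N-glycan assembly (451 and 379 against 45.5 and 124 in the control), at 2.43 ± 0.55. Their adjusted p-values were 0.293 and 0.229. For 3 further genes both control arrays were at the floor, so a lower bound can be given. Cdc14, a phosphatase of mitotic exit, read 263 and 275 on the E2f2/Dp arrays, at least 5.66-fold the floor. The bound was 4.79-fold for CheB42b, a putative chemosensory protein, and 4.64-fold for PolZ2, a subunit of the translesion DNA polymerase zeta. In the other direction stood mtt, a receptor of the glutamate receptor family, at -2.86 ± 0.72, and Ir64a, an ionotropic receptor, at -2.68 ± 0.60. On the E2f2/Dp arrays mtt read 51.1 and 32.8 and Ir64a 85.3 and 17.6, so that 1 array of each was at the floor. A further probe set of mtt showed a difference of 0.04. CtsL2, a cathepsin L type protease, came nearest to the threshold. It read 33.4 and 35.4 on the E2f2/Dp arrays, both at the floor, against 233 and 273 on the control arrays (at least 5.31-fold, adjusted p = 0.0583). The differences of Mink (-2.39 ± 0.64) and of GstE4, a glutathione transferase (-2.30 ± 0.73), had adjusted p-values of 0.324 and 0.383.

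Genes that E2F controls elsewhere, and genes of other families, processes and cell types, were then read as groups. The 33 lists were written from general knowledge, with earlier results of these data known, and are described by counts and medians only. For comparison, 17.1% of all units lay higher and 17.0% lower without overlap of the arrays, and 49.8% had a positive difference.

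None of the 18 measured genes of the replication fork passed. Their median difference was -0.04, 8 were positive and 10 negative, and 3 were higher and 2 lower without overlap. PCNA, the sliding clamp and a classic E2F target, chosen here after its values were seen, read 5123 and 4572 on the E2f2/Dp arrays, against 5775 and 4702 on the control arrays (-0.11 ± 0.20, adjusted p = 0.94). The only member with an unadjusted p under 0.05 was Top1, the type I topoisomerase, with 1405 and 1146 on the E2f2/Dp arrays against 1069.5 and 661 on the control arrays (0.59 ± 0.27, adjusted p = 0.536).

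Genes of origin licensing and firing held 0 calls. Of 18 measured, 12 were negative, 5 of them without overlap, and the median was -0.35. Their summed signal was 12321 and 10738 on the E2f2/Dp arrays, against 16819 and 10756 on the control arrays, so that control replicate 2 read like E2f2/Dp replicate 2. Psf1, a subunit of the GINS complex, read 265 and 126.5 on the E2f2/Dp arrays against 512 and 342 on the control arrays (-1.19 ± 0.47, adjusted p = 0.484). The licensing factor dup, the fly Cdt1, read 791 and 826 in E2f2/Dp embryos and 1549 and 913 in control embryos (-0.56 ± 0.24, adjusted p = 0.523), and the kinase Cdc7 differed by -0.88 ± 0.39. These 3 were the members with an unadjusted p under 0.05. The sign of the median hung on 1 array, since it was 0.12 without control replicate 1. The same was true of the 4 measured genes of nucleotide synthesis, with a median of -0.12 and of 0.24 without that array.

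Genes of mitosis lay mostly on one side. Of 40 measured, 0 passed by limma, 8 had an unadjusted p under 0.05, all of them negative, 31 were negative and 9 positive, 13 were lower and 1 higher without overlap, and the median was -0.29. The smallest p-values belonged to Ndc80, the microtubule-binding kinetochore subunit, to Bub3 and Mps1 of the spindle checkpoint, and to the kinesin Klp67A. Ndc80 read 91.1 and 74.5 on the E2f2/Dp arrays, against 715 and 256 on the control arrays (-2.38 ± 0.61, adjusted p = 0.293). Bub3 read 1805 and 2128 on the E2f2/Dp arrays, against 3263 and 2548 on the control arrays (-0.56 ± 0.19, adjusted p = 0.387). Klp67A differed by -0.89 ± 0.34 and Mps1 by -0.67 ± 0.25, both with an adjusted p of 0.441. The summed signal of the 40 genes was 54393 and 51634 on the E2f2/Dp arrays, against 81943 and 54112 on the control arrays. Control replicate 2 thus read close to the E2f2/Dp arrays and replicate 1 far above them. The median was -0.05 without control replicate 1 and -0.57 without control replicate 2, so its size rested on which control array was used.

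Smaller groups of the cell cycle gave similar medians and no call. It was -0.15 for 12 regulators of G1 and S phase (9 negative), -0.17 for 14 condensin and cohesin genes (8 negative) and -0.23 for 8 genes of chromatin assembly (7 negative, 4 of them lower without overlap). An unadjusted p under 0.05 was reached by 1 member each of the last pair of lists. Cap-G, a condensin subunit, read 434 and 511 on the E2f2/Dp arrays against 1262 and 777 on the control arrays (-1.07 ± 0.42, adjusted p = 0.468), though a further probe set of the gene gave 0.38. Nph, a histone chaperone of the nucleoplasmin type, read 4094 and 3783 in E2f2/Dp embryos and 5418 and 5258 in control embryos (-0.44 ± 0.16, adjusted p = 0.415). In the lists of DNA damage response (16 genes, median -0.11) and cell death (9 genes, median 0.07) 0 genes passed by limma and 0 had an unadjusted p under 0.05, as in the G1 and S list. In mean log2 signal, control replicate 2 lay between the E2f2/Dp arrays for G1 and S (10.325 against 10.246 and 10.39). It did so for condensin and cohesin too (9.45 against 9.32 and 9.48), and lay below both for DNA damage (7.89 against 8.09 and 8.07).

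**Figure D3:**
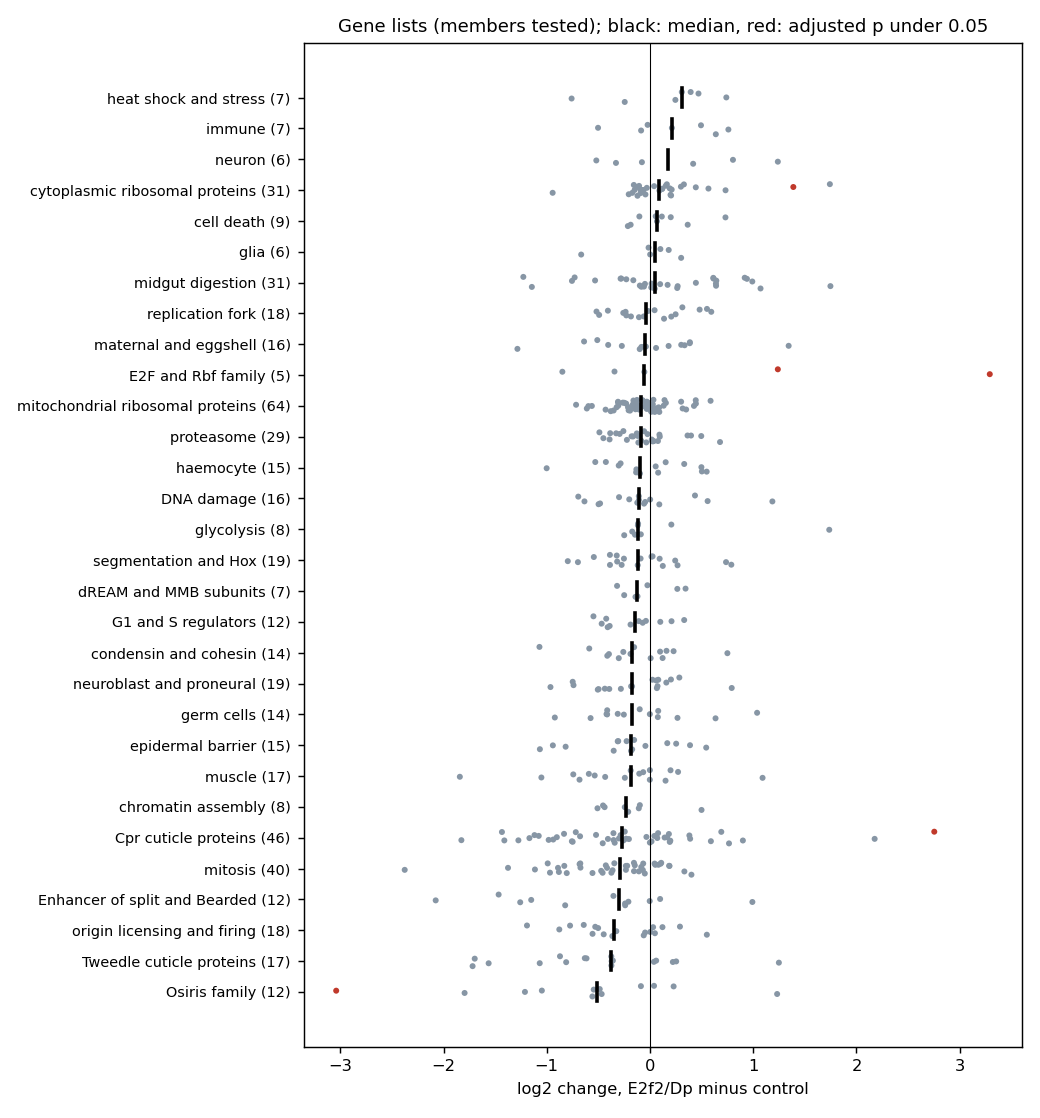
Log2 difference of E2f2/Dp minus control embryos for the measured members of the gene lists with 5 or more of them, ordered by the list's median (black bar), with members that passed in red. The mitosis genes have 31 of 40 members on the negative side, while replication fork genes lie on both sides of 0.

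Genes of the Enhancer of split and Bearded families read mostly lower, without a call. Of 12 measured, 5 had an unadjusted p under 0.05, all of them negative, 10 were negative, 8 of these without overlap, and the median was -0.30. It kept its sign in all 15 alternative settings. Brd, a small inhibitor of Neuralized, read 889 and 1083 on the E2f2/Dp arrays, against 8779.5 and 1948 on the control arrays (-2.08 ± 0.57, adjusted p = 0.338). Ocho, of the same Bearded family, read 1551 and 1761 in E2f2/Dp embryos and 5339.9 and 2520.2 in control embryos (-1.15 ± 0.27, adjusted p = 0.234). A further probe set of Ocho differed by -0.25. E(spl)m4-BFM differed by -1.47 ± 0.38 and the repressor E(spl)m5-HLH by -1.26 ± 0.43. For all 4 genes control replicate 1 was over 2-fold above control replicate 2. Their calls appeared only when control replicate 2 was left out, with adjusted p-values between 0.00172 and 0.0105.

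Cuticle genes varied among themselves. Of 46 Cpr genes, 1 passed (Cpr49Ac, higher), 29 were negative and 20 were lower without overlap, and the median was -0.27. Cpr47Eb stood in the same direction as Cpr49Ac, with 270.2 and 202 on the E2f2/Dp arrays against 32 and 56.2 on the control arrays (2.18 ± 0.56, adjusted p = 0.293). Cpr66D (-1.83 ± 0.73) and Cpr51A (-0.83 ± 0.33) stood on the other side, both with an adjusted p of 0.486. Of 17 Tweedle genes, a further family of cuticle proteins, 5 had an unadjusted p under 0.05 (1 higher and 4 lower), 12 were negative, 9 were lower without overlap and the median was -0.37. TwdlF read 321 and 569 on the E2f2/Dp arrays, against 1576 and 1257 on the control arrays (-1.72 ± 0.40, adjusted p = 0.234), whereas TwdlT read 253.5 and 281 in E2f2/Dp embryos and 175 and 71.9 in control embryos (1.25 ± 0.45, adjusted p = 0.417). A further probe set of TwdlT went the other way (-0.52), with 40.4 and 31.7 on the E2f2/Dp arrays against 65.6 and 70.6 on the control arrays. Of 12 measured Osiris genes Osi20 alone passed, 9 were negative, 6 of them lower without overlap, and the median was -0.52. Osi15 read 620.1 and 779 on the E2f2/Dp arrays against 1625 and 1595 on the control arrays (-1.21 ± 0.35, adjusted p = 0.344). Osi14 read 265 and 364 in E2f2/Dp embryos and 1040.2 and 1118 in control embryos (-1.80 ± 0.54, adjusted p = 0.366). The medians of these 3 families kept their sign when any of the 4 arrays was left out.

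Lists of cell types held 0 genes that passed by limma, and at most 2 in any of them had an unadjusted p under 0.05. The summed signal of 17 muscle genes was 32436 and 34254 on the E2f2/Dp arrays, against 32030 and 43734 on the control arrays, and the groups overlapped in this sum. Of these genes 13 were negative, 6 of them lower without overlap, and the median was -0.19. Their mean log2 signal did not overlap, at 9.42 and 9.56 on the E2f2/Dp arrays against 9.57 and 9.98 on the control arrays. Prm, paramyosin, read 98.5 and 183 on the E2f2/Dp arrays against 711 and 326 on the control arrays (-1.84 ± 0.50, adjusted p = 0.338). The sum of 6 neuronal genes was 4416 and 5393 in E2f2/Dp embryos, against 2638 and 4619 in control embryos. The groups overlapped in this sum too, and 3 of the genes were positive and 3 negative. Among them fne, an RNA-binding protein of neurons, read 1388 and 1316 on the E2f2/Dp arrays against 372 and 883 on the control arrays (1.24 ± 0.35, adjusted p = 0.341). The sum of 31 genes of midgut digestion was 17957 and 18286 in E2f2/Dp embryos, against 11859 and 22562 in control embryos, so both E2f2/Dp arrays lay between the control arrays. The lists of neuroblasts (median -0.17), glia (0.05), haemocytes (-0.10), germ cells (-0.18), epidermal barrier (-0.18), trachea (-0.35), fat body (-0.15) and eggshell (-0.05) had medians of either sign and held 4 to 19 measured genes each. Segmentation and Hox genes (19 genes, median -0.12), the glycolysis genes (8, -0.12), the proteasome genes (29, -0.09) and the immune genes (7, 0.21) held 0 that passed, and 0, 1, 2 and 0 with an unadjusted p under 0.05 in this order.

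The lists of the translation apparatus differed little in sum. For 31 cytoplasmic ribosomal protein genes it was 605520 and 587820 on the E2f2/Dp arrays, against 563800 and 554910 on the control arrays, without overlap. Of these genes RpL28 alone passed, 17 were positive and the median was 0.09. Without overlap 11 were higher and 6 lower (17.1% and 17.0% of all units were). RpL17 read 4033 and 5678 on the E2f2/Dp arrays, against 1042 and 1964 on the control arrays (1.74 ± 0.73, adjusted p = 0.497), and RpS27A 20234 and 19204 in E2f2/Dp embryos against 10708 and 13159 in control embryos (0.73 ± 0.30, adjusted p = 0.496). RpL37A stood on the other side, with 3304 and 3727 on the E2f2/Dp arrays and 7585 and 5999.9 on the control arrays (-0.94 ± 0.31, adjusted p = 0.384). Of 64 mitochondrial ribosomal protein genes 0 passed, 4 had an unadjusted p under 0.05 (2 in each direction), 42 were negative and the median was -0.08. Heat shock and stress genes had the highest median of the lists with 5 or more genes, 0.31 over 7 genes, of which Hsp27 read 674 and 837 in E2f2/Dp embryos and 425 and 476 in control embryos (0.74 ± 0.31, adjusted p = 0.497).

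The embryos that overexpressed E2f1 with the same Dp transgene gave a comparison whose log2 differences did not use the control arrays. Its errors came from the same fit of 18 arrays, control arrays included. This comparison shares the E2f2/Dp arrays with the comparison above. Of the 8975 units, 27 passed (0.301%), 11 higher in E2f2/Dp embryos (0.123%) and 16 lower (0.178%). An unadjusted p under 0.05 was reached by 12.0% of units, 5.85% higher and 6.12% lower, and 52.4% had a positive difference. The driven factors passed in their own directions. E2f2 was 2.87 ± 0.28 higher on the log2 scale in E2f2/Dp embryos (limma adjusted p = 1.07e-04). E2f1 was lower, with 1076 and 1008 on the E2f2/Dp arrays against 12282 and 6952 on the E2f1/Dp arrays (-3.15 ± 0.54, adjusted p = 0.0258), though the E2f1 call passed in 1 of the 4 fits that left out 1 array (adjusted p up to 0.174). The count was 9 without either E2f2/Dp replicate, 10 without E2f1/Dp replicate 1 and 74 without E2f1/Dp replicate 2.

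The gene with the smallest p was phu, which carries alkaline phosphatase among its RefSeq synonyms. It read 717 and 705 on the E2f2/Dp arrays, against 5678 and 5639 on the E2f1/Dp arrays and 1351 and 850.3 on the control arrays. E2f2/Dp embryos were 7.96-fold lower than E2f1/Dp embryos (-2.99 ± 0.26, limma adjusted p = 2.96e-05), and the call held in each fit that left out 1 array. Genes of DNA synthesis read lower in E2f2/Dp than in E2f1/Dp embryos, and 1 of them passed. PCNA read 5123 and 4572 on the E2f2/Dp arrays, against 10848 on both E2f1/Dp arrays (-1.16 ± 0.20, limma adjusted p = 0.0244). Its call passed in 1 of the 4 fits that left out 1 array, the fit without E2f1/Dp replicate 2, and the adjusted p was up to 0.121 in the others. All 4 nucleotide genes and all 18 origin genes had a negative difference, with medians of -0.80 and -0.59. Of the 18 fork genes 16 were negative, 13 were lower and 1 was higher without overlap (19.7% and 21.7% of all units were) and the median was -0.64. Among those that did not pass, RPA1, the large subunit of the single-strand binding protein, read 1014 and 995 in E2f2/Dp embryos and 2849 and 2212 in E2f1/Dp embryos (-1.32 ± 0.29, adjusted p = 0.0795), with -0.54 for a further probe set. RnrL, of ribonucleotide reductase, read 636 and 813.5 in E2f2/Dp embryos and 1602 and 1599 in E2f1/Dp embryos (-1.15 ± 0.28, adjusted p = 0.102). The median over all 8975 units was 0.02.

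Mitosis and chromosome genes lay the same way. Of 40 mitosis genes 33 were negative, 23 were lower without overlap and the median was -0.49, with 0 calls by limma and 9 genes at an unadjusted p under 0.05, all negative. Of 14 condensin and cohesin genes 13 were negative, 4 of them at an unadjusted p under 0.05, and the median was -0.44 with 0 calls. SMC2, a condensin core subunit, read 599 and 567 on the E2f2/Dp arrays against 2094 and 2042 on the E2f1/Dp arrays (-1.83 ± 0.41, adjusted p = 0.085), and SA1, a cohesin subunit, 549.6 and 609 against 1198 and 1622 in E2f1/Dp embryos (-1.27 ± 0.26, adjusted p = 0.0571). Each of these medians kept its sign in all 15 alternative settings.

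Genes outside the cell cycle differed as well. RpL28 was 3.76-fold higher in E2f2/Dp than in E2f1/Dp embryos (1.91 ± 0.17, limma adjusted p = 2.96e-05). CG14312 read 492 and 432 on the E2f2/Dp arrays, against 64.0 and 84.9 on the E2f1/Dp arrays (2.64 ± 0.27, adjusted p = 1.07e-04), and 376 and 309 on the control arrays, so that E2f1/Dp embryos were the ones that stood low. Obp56a, an odorant-binding protein, read 993 and 956 in E2f2/Dp embryos and 128 and 294 in E2f1/Dp embryos (2.33 ± 0.41, adjusted p = 0.0261). CG32365 (2.74 ± 0.52) was higher, and CG8160 (-3.14 ± 0.52) and wwk (-2.84 ± 0.40) were lower in E2f2/Dp embryos. A pair of further probe sets of CG32365 gave -0.95 and 0.12. Prm read 98.5 and 183 on the E2f2/Dp arrays, against 1302 and 782 on the E2f1/Dp arrays (-2.91 ± 0.50, limma adjusted p = 0.026). The muscle list as a whole had 13 of 17 genes negative and a summed signal of 32436 and 34254 in E2f2/Dp embryos, against 59528 and 47611 in E2f1/Dp embryos. TwdlG was lower too, with 99.3 and 124 in E2f2/Dp embryos against 635 and 587 in E2f1/Dp embryos (-2.46 ± 0.49, adjusted p = 0.0454), and 16 of 17 Tweedle genes, 37 of 46 Cpr genes and 26 of 31 midgut genes were negative. Of the 4 fits that left out 1 array, CG32365 and TwdlG passed in 0, Obp56a, wwk and Prm in 1, the fit without E2f1/Dp replicate 2, and CG8160 in 2. Their adjusted p-values rose to 0.186 for CG32365, 0.233 for TwdlG, 0.192 for Obp56a, 0.0600 for wwk, 0.201 for Prm and 0.153 for CG8160. The age index moved with these groups, at 0.051 and 0.065 on the E2f2/Dp arrays against 0.153 and 0.114 on the E2f1/Dp arrays, and its part in the differences was not tested.

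The comparison with Rbf1 overexpression set E2f2 against a protein that represses with it. Of the 8975 units 118 passed (1.31%), 65 higher in E2f2/Dp embryos (0.724%) and 53 lower (0.591%). An unadjusted p under 0.05 was reached by 11.5% of units, 5.20% higher and 6.33% lower, and 48.1% had a positive difference. With the deposited scaling, before quantile normalization, 105 were higher and 31 lower. The count was 54 and 41 without E2f2/Dp replicates 1 and 2, and 46 without Rbf1 replicate 2. The driven transcripts passed, with E2f2 4.10 ± 0.28 and Dp 1.38 ± 0.19 higher and Rbf 2.89 ± 0.35 lower in E2f2/Dp embryos. Rbf read 242 and 317 on the E2f2/Dp arrays and 2213 and 1908 on the Rbf1 arrays. E2f1 was lower as well (-2.67 ± 0.54, limma adjusted p = 0.0182), with 1076 and 1008 on the E2f2/Dp arrays, but the Rbf1 arrays were far apart, at 3221 and 13647, and the call passed in 1 of the 4 fits that left out 1 array (adjusted p up to 0.261).

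Ribosomal protein genes read higher in E2f2/Dp than in Rbf1 embryos, and the brightest signals of the Rbf1 arrays were low. The highest deposited signal was 33804 and 33929 on the E2f2/Dp arrays, against 20678 and 16816 on the Rbf1 arrays. Of 31 cytoplasmic ribosomal protein genes 15 passed, all higher in E2f2/Dp embryos, and the median was 0.82. RpL32, of the large ribosomal subunit, read 17194 and 16929 on the E2f2/Dp arrays, against 2604 and 620.1 on the Rbf1 arrays and 16713 and 20741 on the control arrays. It differed by 3.75 ± 0.46 (limma adjusted p = 3.27e-04). RpL17 read 4033 and 5678 in E2f2/Dp embryos and 40.5 and 107 in Rbf1 embryos (6.07 ± 0.73, adjusted p = 2.65e-04). Rbf1 replicate 1 was under the floor of 47.5 and entered the fit at that value, so the size of this difference is limited by the floor. RpL3 (2.66 ± 0.33) and Rack1, a scaffold protein of the small ribosomal subunit (3.20 ± 0.33), were higher too. For RpL32 and Rack1 the E2f2/Dp arrays read like the control arrays, and it was the Rbf1 arrays that stood low. RpL28 was 2.08 ± 0.17 higher in E2f2/Dp embryos.

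Genes of the replication fork read mostly higher in E2f2/Dp than in Rbf1 embryos, whereas origin genes were divided. Of 18 fork genes 2 passed, 15 were positive and the median was 0.33. PolA1, which holds the catalytic site of DNA polymerase alpha, read 1344 and 1209.9 on the E2f2/Dp arrays, against 712 and 668 on the Rbf1 arrays (0.89 ± 0.20, limma adjusted p = 0.0435). PolD2, of DNA polymerase delta, read 522 and 606 in E2f2/Dp embryos, against 151 and 204 in Rbf1 embryos (1.68 ± 0.37, adjusted p = 0.0364). Neither passed in any of the 4 fits that left out 1 array. The 18 origin genes had a median of -0.02, with 0 calls by limma and 2 genes, 1 in each direction, at an unadjusted p under 0.05. The 40 mitosis genes had a median of -0.19, with 32 negative, 0 calls and 7 genes at an unadjusted p under 0.05 (1 higher and 6 lower).

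Cell type genes differed in both directions. Elav, an RNA-binding protein of neurons, read 2068 and 3134 on the E2f2/Dp arrays, against 415 and 549.7 on the Rbf1 arrays and 1387 and 2619 on the control arrays (2.41 ± 0.35 against Rbf1 embryos, limma adjusted p = 0.00121). It was the only 1 of 6 neuronal genes to pass, of which 4 were positive and 2 negative, with a median of 0.23. Their summed signal was 4416 and 5393 in E2f2/Dp embryos, against 3003 and 2850.4 in Rbf1 embryos, and this gap came from elav. Of 31 midgut genes 28 were positive, 16 were higher without overlap (22.0% of all units were) and the median was 0.56, with 0 calls by limma and 12 genes at an unadjusted p under 0.05. Jon65Ai, a midgut serine protease, read 576 and 266 in E2f2/Dp embryos, against 159 and 75.5 in Rbf1 embryos (1.83 ± 0.47, adjusted p = 0.0813). Germ cell genes lay the other way, with 12 of 14 negative, 8 of them without overlap (25.2% of all units were), a median of -0.42, 0 calls and 4 genes at an unadjusted p under 0.05. Among single genes slpr, a kinase of the JNK cascade, was lower, with 88.2 and 80 on the E2f2/Dp arrays against 563 and 481 on the Rbf1 arrays (-2.63 ± 0.51, adjusted p = 0.0139). Mink (-2.80 ± 0.64) and wwk (-2.27 ± 0.40) were lower too, but slpr and Mink passed in 0 and wwk in 1 of the 4 fits that left out 1 array (adjusted p up to 0.122, 0.333 and 0.0976). The gene wwk read 53.6 and 52.8 on the E2f2/Dp arrays, 397 and 364 with E2f1/Dp, 329.5 and 200.3 with Rbf1 and 186 and 230.5 in the control, from which the difference of -1.96 ± 0.40 did not pass (adjusted p = 0.149). The age index was 0.051 and 0.065 on the E2f2/Dp arrays and 0.014 and 0.026 on the Rbf1 arrays.

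**Figure D4:**
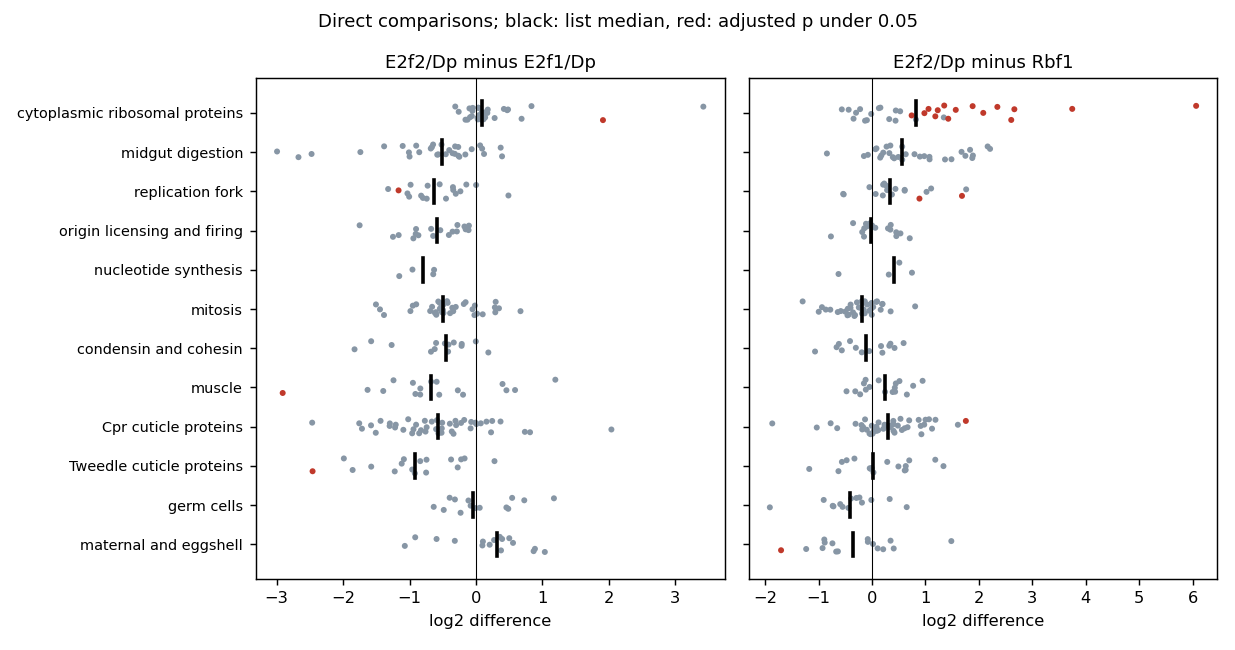
Log2 difference of E2f2/Dp minus E2f1/Dp embryos (left) and of E2f2/Dp minus Rbf1 embryos (right) for the measured members of 12 gene lists, with the list's median as a black bar and members that passed in red. Origin genes all lie below 0 on the left and around 0 on the right, and 15 ribosomal protein genes pass on the right.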

How the data were processed

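Per the labels, whole-embryo RNA was hybridised to Affymetrix arrays. The authors deposited linear probe-set signal as intensity for 13966 probe sets on 18 arrays, with trimmed means (2% off each end) of 495 to 498 on all arrays. The summarising software is not given in the sources used here. From these values the arrays were quantile normalized, set to a floor of 47.5 (20th percentile) and log2 transformed, and the dimmest 30% of probe sets by mean were dropped. The annotation names 1 gene for 12443 probe sets, several for 327 and none for 1196; each gene keeps its probe set with the highest mean. This left 8975 units, of which 7927 are named genes. limma 3.58.1 (R 4.3.3) fitted 9 group means to 18 arrays with trended eBayes (9 residual and 6.16 prior degrees of freedom); tests were two-sided with Benjamini-Hochberg adjustment over 8975 units. The fit was tested on simulated data. No control probe sets were used, and the number of arrays limits the precision.

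The members, the 33 gene lists and the rule for named genes were chosen with earlier results of these data known, and the gene phu was taken off the nucleotide list on seeing its annotation. Named are the family members E2f1, E2f2, Dp, Rbf and Rbf2, each unit that passed against the control, the 8 largest differences in each direction with unadjusted p under 0.05, no overlap and the higher group above the floor, up to 4 list members with the smallest p, and the 5 largest passing differences in each direction of the direct comparisons. Replicate numbers were not used as pairs in the main fit. Same-numbered deviations of E2f2/Dp and control arrays correlated at 0.0048. This correlation runs across genes, so it cannot decide whether the samples were handled in pairs. Alternatives tried were median centring or the deposited scaling in place of quantile normalization, an offset of 50 or nothing in place of the floor, a filter of 50% or none, all probe sets of a gene, eBayes untrended or robust, a replicate block, only the compared groups, and leaving out each array.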

Additional observations from a re-analysis of the deposited data

How the results depend on the processing

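The counts of calls moved with single arrays and with the groups that entered the fit. Against the control, where 7 units passed, the count was 15 with no filter on dim probe sets and 1 with only the groups compared, and it ranged between 3 and 195 when each array was left out. Against E2f1/Dp (27 passed) it was 16 with median centring, 9 without the trend, 6 with only the groups compared, and between 9 and 74 with 1 array left out. Against Rbf1 (118 passed) it was 56 without the trend, 12 with only the groups compared and between 41 and 84 with 1 array left out. The other settings kept each count within 1.5 times. With the replicate number as a block 5, 23 and 108 units passed, and of the 7 calls against the control Osi20 and Cpr49Ac were lost (adjusted p = 0.0505 each). The difference of Rbf from the control turned to 0.015 with the deposited scaling and ranged between -0.31 and 0.20 with 1 array left out, and that of Rbf2 between -0.83 and 0.14. The causes were not tested. Where an array is left out, the lone array of its group is assumed to vary like the other groups. E2f2 passed against the control in all 15 alternatives (adjusted p between 2.99e-05 and 0.00849), and RpL28 and 154228_at in all but the fit of the groups compared alone (0.744). Cpr49Ac and Osi20 passed in 8 of 15 each, Dp in 10 of 15 and CG32548 in 10 of the 14 that tested it. Of 139 named differences 35 were called; 27 of these lost the call in 1 or more settings, 19 others gained one, and the signs of Rbf and Rbf2 turned as above. Signal near the floor limits the folds of Cpr49Ac, Cdc14, CheB42b, PolZ2 and CtsL2 to lower bounds, and limits that of RpL17 against Rbf1. In the lower group 1 array was also at the floor for mtt, Ir64a, Alg10, Cpr47Eb and Cpr66D against the control. The same held for CG8160 against E2f1/Dp.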
